A study of Mus musculus with 10 samples.

Results

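The genes described here encode amino acid and monocarboxylate transporters in regenerating mouse liver. They were taken by symbol from the deposited table, as every locus whose name begins with Slc1a, Slc3a, Slc6a, Slc7a, Slc16a, Slc36a, Slc38a or Slc43a, with Slc1a2 left out. The rule gave 75 genes of the 23535 loci with values in all libraries, and it used no measured value. One of them, Slc7a6os, is named for lying on the opposite strand next to Slc7a6 and encodes no transporter. RNA sequencing of livers taken 40 h after partial hepatectomy gave 6 libraries. In the 3 KO libraries the mice carried floxed Arid1a alleles (Arid1a Fl/Fl) and the Alb-cre transgene, whose albumin promoter drives Cre recombinase in hepatocytes. In the 3 WT libraries the mice carried the same floxed alleles without Alb-cre. All mice were at postnatal day 90 and of a C57/B6 and 129 mixed background, and all of these livers had been resected. Of the 10 samples of the series, the 2 KO and 2 WT samples from before hepatectomy are not analysed here, and no response to the operation itself is given.

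Amino acids and small carboxylates cross membranes through carrier proteins of the solute carrier (SLC) families. Hepatocytes take up glutamine, alanine, arginine, taurine and betaine from blood, exchange large neutral and aromatic amino acids, and move lactate, pyruvate and ketone bodies through proton-linked monocarboxylate transporters. Some SLC7 carriers reach the membrane only when bound to a single-pass heavy chain of the SLC3 family, and several SLC16 carriers need the glycoprotein basigin in the same way. Several amino acid carriers are also known targets of ATF4, the transcription factor of the amino acid response.

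Levels are in FPKM (fragments scaled by transcript length and library total), as the authors deposited them, so levels can be compared between genes. FPKM summed to between 430725 and 495209 per KO library and between 409142 and 480544 per WT library. Absolute depth is unknown, and relative depth lay between 0.826 (KO replicate 3) and 1.202 (WT replicate 3), with WT replicate 1 set to 1. Arid1a was 4.41, 5.57 and 6.15 FPKM in the KO libraries and 8.68, 8.45 and 8.49 FPKM in the WT libraries. The log2 difference was -0.59 (SE 0.15, limma adjusted p = 0.207). Which cells or alleles the transcript left in KO came from was not tested. The 12 cycling cell markers summed to 319, 13.8 and 502 FPKM in KO replicates 1, 2 and 3 and to 18.5, 9.74 and 46.2 FPKM in WT replicates 1, 2 and 3, so KO replicate 2 stood apart from the other KO libraries. The 8 hepatocyte markers, among them albumin, summed to between 39909 and 47389 FPKM in KO and between 44478 and 48378 FPKM in WT. Whether the libraries are from different mice is not in the labels, so p-values refer to the spread among libraries, which may be technical. In whole liver, fewer cells of a type and less RNA per cell cannot be told apart.

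Of the 75 genes, 62 were above the floor of the table in at least 1 library and 13 were listed at 0 in all 6. Those 13 were 8 Slc6 genes, Slc7a9, Slc7a12, Slc36a3, Slc38a8 and Slc38a11. A mean of at least 1 FPKM over the 6 libraries was reached by 33 genes, which were tested. Of these 33, 5 had a mean of at least 50 FPKM, 12 lay between 10 and 50 FPKM, and 16 lay below 10 FPKM. The most abundant was Slc38a3, at rank 115 among all loci. It encodes SNAT3, the glutamine transporter of perivenous hepatocytes. Slc38a3 took 37.4%, 34.8% and 46.6% of the summed FPKM of the 75 genes in KO replicates 1, 2 and 3 and 48.8%, 41.6% and 45.6% in WT replicates 1, 2 and 3. Slc38a4, Slc6a13, Slc7a2 and Slc38a2 followed, and these 5 genes together took between 60.4% and 75.8% in KO and between 70.8% and 75.8% in WT. The 75 genes together held 0.237%, 0.164% and 0.233% of all FPKM in the KO libraries and 0.253%, 0.255% and 0.275% in the WT libraries. Without Slc38a3 the shares were 0.149%, 0.107% and 0.124% in KO and 0.130%, 0.149% and 0.150% in WT, where the groups overlapped.

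The comparison of KO with WT asked which transporter transcripts differ in regenerating liver when Alb-cre targets Arid1a in its hepatocytes. None of the 33 tested genes passed an adjusted p of 0.05 in limma, against 13 of 10956 loci tested (0.119%). The smallest adjusted p was 0.244, for Slc16a4, which reached the filter only through its KO libraries. At an unadjusted p under 0.05 there were 5 genes, which is 15.2% of the 33, the same share as among all loci (15.2%). Of these, 1 was higher in KO (background 11.2%) and 4 were lower (background 3.99%). In 9 of the 33, or 27.3%, the KO libraries all lay on one side of the WT libraries, against 22.1% of all loci. These were 4 genes with KO above WT (12.1%, background 16.7%) and 5 with KO below WT (15.2%, background 5.44%). The median log2 difference, KO minus WT, of log2(FPKM + 1) was 0.09 for the 33 genes and 0.15 for all loci, and 12 of the 33 lay above the median of all loci.

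The balance between the directions depended on how libraries were scaled. After median-of-ratios rescaling, which brought the median of all loci to 0.02, 1 gene lay above WT (3.03%, background 8.0%) and 7 lay below WT (21.2%, background 9.67%) with no overlap, or 24.2% together (background 17.7%). At an unadjusted p under 0.05, 1 was then higher in KO (background 5.46%) and 6 were lower (background 6.61%), which is 7 of 33 against 12.1% of all loci. The count of genes separated in the same direction both ways was 6. They were Slc16a4 with KO above WT, and Slc3a1, Slc16a10, Slc7a5, Slc36a4 and Slc7a14 with KO below WT. With KO replicate 2 left out, 14 of the 33 were separated (8 with KO above WT, background 27.8%, and 6 below, background 10.7%, together 38.6% of all loci). None was called, while 242 loci (2.21%) were called among all. At an unadjusted p under 0.05, 1 was higher (background 13.3%) and 1 was lower (background 4.80%), against 18.1% of all loci.

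**Figure D1:**
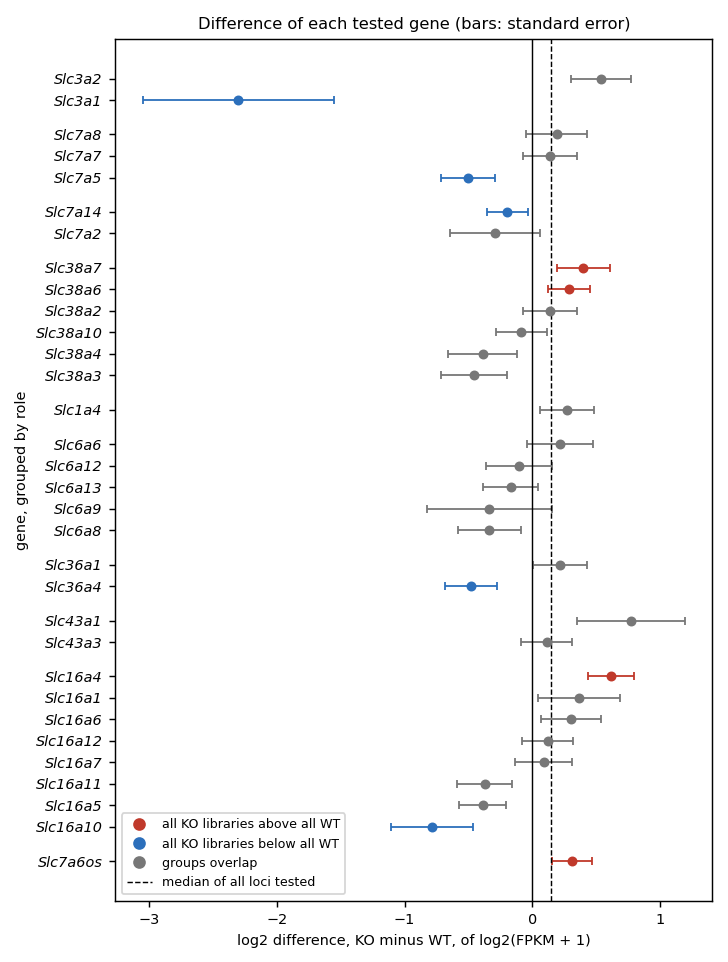
Log2 difference of log2(FPKM + 1), KO minus WT, with its standard error for 32 of the 33 tested genes (n = 3 libraries a group), grouped by role. Red and blue points mark the 9 genes whose KO libraries all lay above or below all WT libraries, and the dashed line is the median of all loci, 0.15. Slc3a1, at -2.30, lies far to the left of the other genes, which lie between -0.79 and 0.77.

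Of the heavy chains of the heteromeric carriers, Slc3a1 was separated and Slc3a2 was not. Slc3a1 encodes rBAT, the heavy chain of the cystine and dibasic amino acid carrier of kidney and gut. It was 12.2, 0.491 and 4.34 FPKM in KO replicates 1, 2 and 3 and 28.5, 27.3 and 14.1 FPKM in WT replicates 1, 2 and 3. Every KO library was below every WT library, by a narrow margin between KO replicate 1 and WT replicate 3, and KO replicate 2 held almost none. The means were 5.69 ± 5.99 FPKM in KO and 23.3 ± 7.98 FPKM in WT (SD, n = 3 each), and the WT mean was 4.09 times the KO mean. The log2 difference was -2.30 (SE 0.75, limma adjusted p = 0.275), with p = 0.1 in an exact two-sided permutation test, the lowest value that 3 against 3 libraries can give. Without KO replicate 2 the log2 difference was -1.47. The locus (chromosome 17, 85028347 to 85064241, mm10) shares 765 bases with Prepl, which was 14.9, 6.55 and 8.68 FPKM in KO and 16.3, 16.4 and 10.3 FPKM in WT, and reads in the overlap cannot be told apart without strand.

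The bases just before the Slc3a1 start are shown because this gene had the largest difference of the set. In the line below, from RefSeq (GRCm38.p6, chr17:85028247-85028346, plus strand), capitals mark where TATAAA occurs on either strand, and its matches, which begin 20 and 18 bases before the start, overlap each other. The motif was chosen after the sequence was seen, and 5.56% of all promoter windows hold it in the 100 bases before the start.
Slc3a1: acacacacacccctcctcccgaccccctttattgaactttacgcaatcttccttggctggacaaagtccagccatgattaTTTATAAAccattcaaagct

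Slc3a2 encodes 4F2hc (CD98), the heavy chain of the widely expressed LAT and xCT carriers. It was 16.6, 21.7 and 12.97 FPKM in KO and 9.14, 14.1 and 10.9 FPKM in WT. The groups overlapped only between KO replicate 3 and WT replicate 2 (log2 difference 0.54, SE 0.24, limma adjusted p = 0.340). The ratio of Slc3a2 to Slc3a1 within a library, which no rescaling of libraries alters, was 1.36, 44.2 and 2.99 in KO and 0.321, 0.519 and 0.776 in WT. In every KO library the transcript of 4F2hc was thus the more abundant heavy chain, and in every WT library that of rBAT was.

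The light chains of these carriers were low. Slc7a9, the light chain that pairs with rBAT in kidney, was listed at 0 in all 6 libraries. Slc7a13, another partner of rBAT in mouse kidney, was listed at 0 in 5 libraries and at 0.165 FPKM in KO replicate 3. Slc7a5 encodes LAT1, the exchanger of large neutral amino acids that pairs with 4F2hc. It was 1.01, 1.25 and 1.12 FPKM in KO and 2.25, 1.34 and 2.62 FPKM in WT, with KO below WT throughout. WT replicate 2 lay close to the KO libraries (log2 difference -0.51, SE 0.21, limma adjusted p = 0.325). The ratio of Slc3a2 to Slc7a5 within a library was 16.4, 17.4 and 11.6 in KO and 4.07, 10.6 and 4.18 in WT, with no overlap. The genes and ratios set side by side here were chosen with their values known, so the ratios have no test.

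The other partners of 4F2hc that reached the filter overlapped between the groups. Slc7a7, the y+LAT1 exchanger of cationic and neutral amino acids, was 3.74, 4.17 and 2.37 FPKM in KO and 3.11, 3.46 and 2.36 FPKM in WT (log2 difference 0.14, SE 0.21), and it reversed to -0.0092 under quantile normalization. Slc7a8, the LAT2 exchanger, was 1.51, 1.504 and 0.692 FPKM in KO and 0.624, 1.23 and 0.976 FPKM in WT (log2 difference 0.19, SE 0.24). Below the filter, Slc7a6, the y+LAT2 exchanger, was at most 0.317 FPKM in KO and 0.201 FPKM in WT. Slc7a10, the Asc-1 exchanger, was listed at 0 in every library but WT replicate 1, where it was 0.0507 FPKM.

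**Figure D2:**
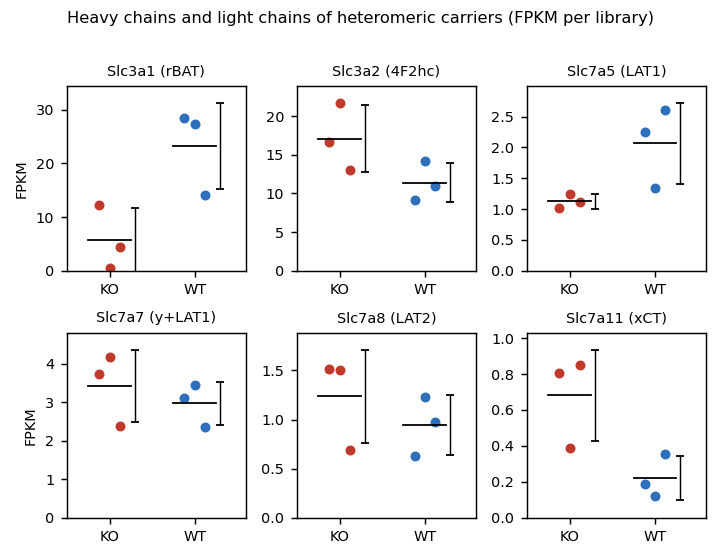
FPKM per library for both SLC3 heavy chains and 4 light chains of the SLC7 family (points, KO left and WT right, 3 libraries each; line, mean; bar, SD, which for Slc3a1 in KO runs below the axis). Slc3a1 and Slc7a5 lie lower in KO, Slc7a11 lies higher in KO at under 1 FPKM, and Slc3a2, Slc7a7 and Slc7a8 overlap.

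Of the 5 cationic amino acid carriers and their relatives, 2 were tested. Slc7a2 encodes CAT2, the arginine carrier of hepatocytes. It was 66.4, 27.1 and 67.4 FPKM in KO and 62.3, 57.5 and 63.2 FPKM in WT. KO replicates 1 and 3 were above every WT library and KO replicate 2 was far below them, so the log2 difference of -0.29 (SE 0.35) became 0.13 without KO replicate 2. Slc7a14, a lysosomal relative, was 1.05, 1.04 and 0.988 FPKM in KO and 1.25, 1.49 and 1.23 FPKM in WT, a small separation (log2 difference -0.20, SE 0.16, limma adjusted p = 0.567). Slc7a1, the ubiquitous arginine carrier CAT1, stayed below the filter.

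The SLC38 family, sodium-coupled carriers of glutamine, alanine and other small neutral amino acids, held the largest share of the transcripts. Of its 11 genes 6 were tested, 2 were separated with KO above WT (background 16.7%), neither of them after rescaling, and none with KO below WT (background 5.44%). Slc38a3 was 382, 284 and 485 FPKM in KO and 594, 434 and 528 FPKM in WT. The highest KO library lay above the lowest WT library, and the means were 384 ± 101 and 519 ± 80.5 FPKM in KO and WT (SD, n = 3 each; log2 difference -0.46, SE 0.26, limma adjusted p = 0.422, and -0.26 without KO replicate 2). Slc38a4, the SNAT4 carrier enriched in liver, was 117, 65.2 and 109 FPKM in KO and 139, 102 and 134 FPKM in WT (log2 difference -0.39, SE 0.27, and -0.13 without KO replicate 2). The ratio of Slc38a3 to Slc38a4 stayed between 3.26 and 4.43 in KO and between 3.95 and 4.27 in WT.

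Slc38a2 encodes SNAT2, the carrier that amino acid shortage is known to induce through ATF4. It was 60.4, 45.7 and 75.2 FPKM in KO and 50.1, 58.0 and 53.5 FPKM in WT, so both the lowest and the highest library were KO. Its log2 difference of 0.14 (SE 0.21) turned to -0.013 after median-of-ratios rescaling and to -0.016 after quantile normalization. Against Slc38a3 the groups did separate, since the ratio of Slc38a3 to Slc38a2 was 6.32, 6.20 and 6.45 in KO and 11.9, 7.47 and 9.88 in WT. That ratio was also chosen with its values known.

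The remaining tested SLC38 genes encode carriers of internal membranes or of less settled function. Slc38a7, the lysosomal glutamine exporter SNAT7, was 6.58, 9.81 and 5.38 FPKM in KO and 5.001, 5.08 and 5.24 FPKM in WT. KO replicate 2 was the highest, KO replicate 3 lay just above WT (log2 difference 0.40, SE 0.21, limma adjusted p = 0.390), and the separation was lost after rescaling. Slc38a6 was 1.94, 1.66 and 2.38 FPKM in KO and 1.35, 1.63 and 1.37 FPKM in WT, again with a narrow gap that rescaling removed. Slc38a10 was 25.9, 35.3 and 21.8 FPKM in KO and lay between 27.9 and 30.1 FPKM in WT (log2 difference -0.09, SE 0.20). Slc38a9, the lysosomal arginine sensor of the mTORC1 pathway, lay just below the filter at 0.951 ± 0.203 FPKM in KO and 0.807 ± 0.188 FPKM in WT (SD, n = 3 each).

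**Figure D3:**
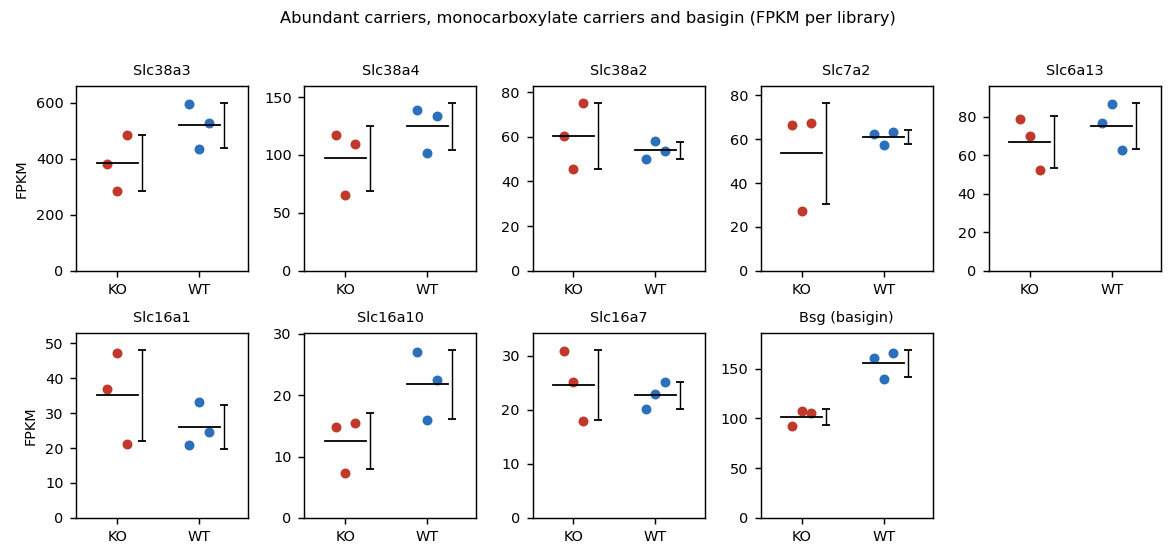
FPKM per library for abundant carriers of the SLC38, SLC7, SLC6 and SLC16 families and for basigin (points, KO left and WT right, 3 libraries each; line, mean; bar, SD). KO and WT overlap for all of these but Slc16a10 and Bsg, where every KO library lies below every WT library.

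In the SLC6 family, which moves its substrates with sodium and chloride, 8 of 19 genes were listed at 0 everywhere and 5 were tested, and none of the 5 was separated. Slc6a13 encodes the GAT2 carrier, which takes up taurine and betaine in liver. It was 79.0, 69.8 and 52.4 FPKM in KO and 76.7, 86.4 and 62.6 FPKM in WT (log2 difference -0.17, SE 0.22). Its neighbour Slc6a12, the betaine carrier BGT1, was 15.8, 22.9 and 17.7 FPKM in KO and 23.3, 14.0 and 24.8 FPKM in WT (log2 difference -0.11, SE 0.26). Slc6a6, the taurine transporter TauT, was 11.6, 16.7 and 11.6 FPKM in KO and 7.62, 12.99 and 13.9 FPKM in WT (log2 difference 0.22, SE 0.26). For all 3 osmolyte carriers the groups overlapped, and the standard error exceeded the log2 difference. The glycine carrier Slc6a9 and the creatine carrier Slc6a8 also overlapped, with means of 5.24 ± 3.72 and 1.21 ± 0.438 FPKM in KO and 6.27 ± 2.90 and 1.82 ± 0.713 FPKM in WT (SD, n = 3 each).

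Slc1a4, the neutral amino acid exchanger ASCT1, was the only tested SLC1 gene. It was 6.01, 5.08 and 7.27 FPKM in KO and 4.11, 4.12 and 6.66 FPKM in WT, with WT replicate 3 inside the KO range (log2 difference 0.27, SE 0.21, limma adjusted p = 0.547). Slc1a5, the glutamine exchanger ASCT2 of proliferating cells, had 0.542 ± 0.123 FPKM in KO and 0.436 ± 0.139 FPKM in WT (SD, n = 3 each) and overlapped.

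Of the 4 proton-coupled carriers of the SLC36 family, 2 were tested. Slc36a4 encodes PAT4, a carrier with high affinity for proline and tryptophan. It was 2.92, 1.64 and 3.12 FPKM in KO and 3.63, 4.13 and 3.89 FPKM in WT. All KO libraries lay below all WT libraries, with KO replicate 2 furthest away (log2 difference -0.48, SE 0.20, limma adjusted p = 0.328, and -0.28 without KO replicate 2). Slc36a1, the PAT1 carrier of small neutral amino acids, was 11.1, 17.5 and 10.8 FPKM in KO and 10.2, 10.4 and 12.3 FPKM in WT. Only KO replicate 2 was above the WT range there (log2 difference 0.21, SE 0.21, and 0.0041 without KO replicate 2).

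In the SLC43 family, Slc43a1, the LAT3 carrier of branched-chain amino acids in liver, was 6.18, 4.94 and 8.04 FPKM in KO and 4.01, 1.19 and 6.07 FPKM in WT. The groups overlapped, and WT replicate 2 was the lowest of all 6 libraries (log2 difference 0.77, SE 0.42, limma adjusted p = 0.410). Slc43a3, a purine base carrier, was 8.45 ± 2.09 FPKM in KO and 7.63 ± 0.914 FPKM in WT (SD, n = 3 each). Slc43a2, the LAT4 carrier, was the untested gene nearest to the filter, with a mean of 0.933 FPKM over the 6 libraries.

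**Figure D4:**
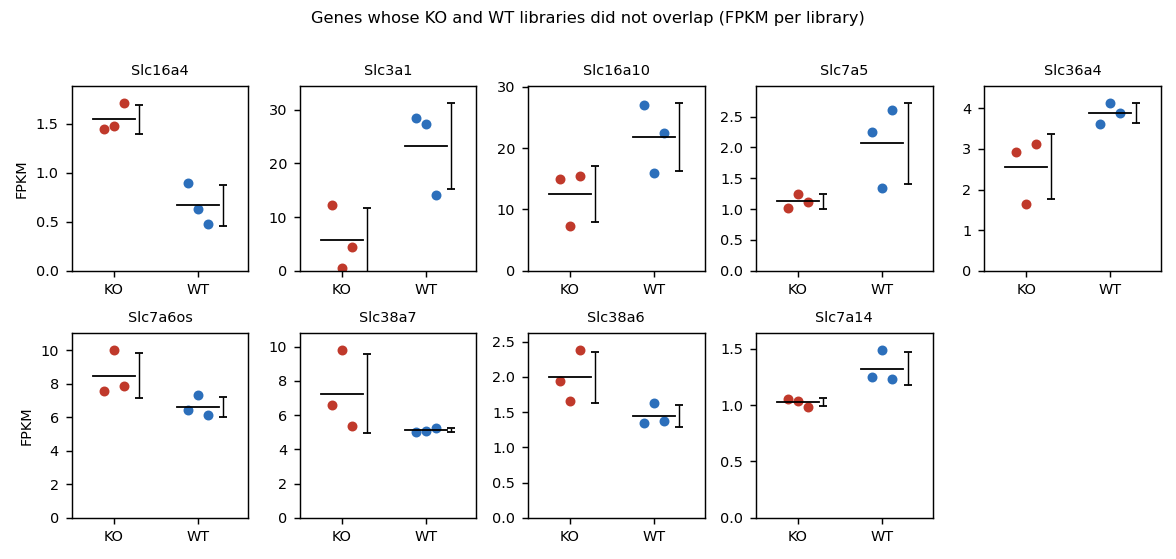
FPKM per library for the 9 tested genes whose KO and WT libraries did not overlap, ordered by p (points, KO left and WT right, 3 libraries each; line, mean; bar, SD, which for Slc3a1 in KO runs below the axis). Slc16a4 lies between 1.44 and 1.71 FPKM in KO and at 0.892 FPKM or less in WT, and Slc38a6, Slc38a7 and Slc7a6os have narrow gaps that rescaling removed.

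All 14 genes of the SLC16 family were above the floor in some library and 9 were tested, of which 1 was separated with KO above WT (background 16.7%) and 1 with KO below WT (background 5.44%). Slc16a4 encodes MCT5, a family member without an established substrate. It was 1.44, 1.47 and 1.71 FPKM in KO and 0.892, 0.633 and 0.481 FPKM in WT. All KO libraries lay above the highest WT library. All WT values were under 1 FPKM, so the gene reached the filter only through its KO libraries. Without KO replicate 3 it fell below the filter and was not fitted. The means were 1.54 ± 0.148 and 0.669 ± 0.208 FPKM in KO and WT (SD, n = 3 each), a ratio of 2.31. The log2 difference was 0.61 (SE 0.18, limma adjusted p = 0.244, exact two-sided permutation p = 0.1), and it stayed at 0.53 after median-of-ratios rescaling and 0.63 without KO replicate 2.

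Slc16a10 encodes TAT1, which exports aromatic amino acids and thyroid hormone. It was 14.9, 7.26 and 15.5 FPKM in KO and 27.0, 15.9 and 22.5 FPKM in WT. The gap between KO replicate 3 and WT replicate 2 was narrow (log2 difference -0.79, SE 0.32, limma adjusted p = 0.322, and -0.46 without KO replicate 2). Slc16a5, which encodes MCT6, overlapped as deposited and separated, with KO below WT, after median-of-ratios rescaling, with log2 differences of -0.39 and -0.53. It was at 8.55 ± 1.56 FPKM in KO and 11.5 ± 1.97 FPKM in WT (SD, n = 3 each).

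The lactate, pyruvate and ketone body carriers overlapped between the groups. Slc16a1 encodes MCT1, the main lactate carrier of hepatocytes in mouse together with MCT2. It was 36.8, 47.2 and 21.3 FPKM in KO and 20.8, 33.1 and 24.6 FPKM in WT (log2 difference 0.36, SE 0.32, and between 0.12 without KO replicate 2 and 0.68 without KO replicate 3). Slc16a7, which encodes MCT2, was 30.8, 25.1 and 17.9 FPKM in KO and 20.1, 22.9 and 25.03 FPKM in WT, and its log2 difference of 0.09 turned to -0.059 after rescaling. Slc16a12, a creatine carrier, was 30.6, 24.4 and 22.0 FPKM in KO and 21.3, 20.6 and 28.9 FPKM in WT, and its log2 difference of 0.12 turned to -0.027 after it. Slc16a6, linked to ketone body export in zebrafish, was 6.86 ± 2.12 FPKM in KO and 5.22 ± 0.668 FPKM in WT, and Slc16a11 was 1.65 ± 0.577 FPKM in KO and 2.40 ± 0.471 FPKM in WT (SD, n = 3 each). The locus of Slc16a6 overlaps Arsg by 223 bases. Slc16a3, which encodes MCT4, the lactate exporter of glycolytic cells, was at most 0.276 FPKM in KO and 0.389 FPKM in WT.

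Basigin, the chaperone that MCT1 and MCT4 need at the membrane, is encoded by Bsg. Bsg was 92.5, 107 and 106 FPKM in KO and 161, 140 and 166 FPKM in WT, and every KO library lay below every WT library (log2 difference -0.61, SE 0.17, limma adjusted p = 0.222). It was the only one of 5 tested genes in a list of carrier partners and regulators with an unadjusted p under 0.05 (background 15.2%). The groups overlapped for the other 4, Nedd4, Nedd4l, Sgk1 and Arl6ip5. The ratio of Slc16a1 to Bsg was 0.398, 0.440 and 0.201 in KO and 0.129, 0.236 and 0.148 in WT, with overlap. Among 17 tested genes of lactate, pyruvate and ketone metabolism none had an unadjusted p under 0.05 (background 15.2%). The median log2 difference of the 17 was -0.12 against 0.15 for all loci. In 3 of them, Pcx, Pdhb and Ldha, all KO libraries lay below all WT libraries (background 5.44%), and in 0 above (background 16.7%). Pcx, pyruvate carboxylase, was 108, 82.0 and 100 FPKM in KO and 136, 112 and 133 FPKM in WT, with no overlap.

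Below the filter, 29 genes were above the floor in some library. In 4 of them the KO libraries all lay above the WT libraries (background 5.41% of the 6006 such loci), and in 0 all below (background 4.71%). They are named here because of these values, they rest on few reads, and they have no test. Slc7a11 encodes xCT, the cystine and glutamate exchanger that pairs with 4F2hc. It was 0.805, 0.391 and 0.848 FPKM in KO and 0.186, 0.119 and 0.358 FPKM in WT, so KO replicate 2 and WT replicate 3 nearly touched. Slc1a1, the glutamate and cysteine carrier EAAC1, was 0.396, 0.638 and 0.242 FPKM in KO and 0.151, 0.0421 and 0.0628 FPKM in WT. Slc7a1 was 0.456, 0.567 and 0.335 FPKM in KO and 0.279, 0.317 and 0.179 FPKM in WT. Slc7a3 was under 0.05 FPKM in all 6 libraries and listed at 0 in WT replicates 1 and 3.

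Several of these carriers are known ATF4 targets, so the core of the CEBP-ATF response element was looked for in promoters. The letters TGATGNAA were searched on both strands of windows from 250 bases before to 50 bases after each start in RefSeq (GRCm38.p6). Of the 75 genes 52 had such a window, and 3 of them (5.77%) held the motif, against 4.51% of all genes with a window. The 3 were Slc7a11, Slc1a4 and Slc7a7, and a match of these letters does not show binding. In the lines below, printed along the strand of each gene, which is the minus strand for all 3, the 8 matching bases are in capitals. Slc7a11 (chr3:50443634-50443693) has matches that begin 66 and 47 bases before the start on opposite strands. The match of Slc1a4 on chromosome 11 begins 4 bases before its start. Those of Slc7a7 on chromosome 14 begin 141 bases and 1 base before a RefSeq start, the start meant in the label below. The nearer match begins 243 bases before another Slc7a7 start, at 54417702, where the locus tested here begins.
Slc7a11: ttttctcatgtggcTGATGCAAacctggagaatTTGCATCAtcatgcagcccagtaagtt
Slc1a4: gcctcctgcgTTGCATCAtctccagcct
Slc7a7 upstream: cgcttgggctTGATGAAAggttcactgg
Slc7a7 at the start: acctagaagcTGATGCAAcagcttcccc

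Of the carriers with the motif, none was called, Slc7a11 was separated below the filter, and Slc1a4 and Slc7a7 overlapped. A list of 30 genes of ATF4 and its targets had 25 tested members, of which 0 were called. At an unadjusted p under 0.05, 3 were higher in KO and 1 was lower, shares near the 11.2% and 3.99% of all loci, and the median log2 difference was 0.26 against 0.15 for all loci. Sesn2, a leucine sensor that restrains mTORC1, was 4.80, 4.04 and 4.89 FPKM in KO and 2.09, 2.59 and 2.96 FPKM in WT (log2 difference 0.66, SE 0.16, limma adjusted p = 0.188). Atf3 and Ddit3 (CHOP), stress-induced transcription factors, were 1.79 ± 0.113 and 5.14 ± 1.47 FPKM in KO and 0.732 ± 0.206 and 2.65 ± 0.229 FPKM in WT (SD, n = 3 each). Every WT value of Atf3 was under 1 FPKM, so Atf3 reached the filter only through its KO libraries. Asns, asparagine synthetase, was 8.81, 9.68 and 3.82 FPKM in KO and 17.1, 18.3 and 11.9 FPKM in WT, the other way (log2 difference -1.05, SE 0.33, limma adjusted p = 0.265). Atf4 itself, named after its value was seen, was 38.2 ± 10.8 FPKM in KO and 36.03 ± 5.77 FPKM in WT.

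Genes that handle or sense what these carriers bring in were described with lists chosen by function. Of 19 tested genes of glutamine, glutamate, asparagine and proline metabolism, 5 had an unadjusted p under 0.05 as lower in KO (background 3.99%). As higher in KO 1 did (background 11.2%), and 0 were called. Among the 5 was Rhbg, which encodes no enzyme. It reached the filter only through WT libraries, and its groups overlapped. Oat and Rhbg are also in the list of pericentral markers below, so the lists are not separate. Aspg, an asparaginase, was 5.46, 2.04 and 5.71 FPKM in KO and 13.3, 14.2 and 18.1 FPKM in WT. Oat, ornithine aminotransferase, was 68.8, 32.8 and 76.6 FPKM in KO and 265, 122 and 353 FPKM in WT, and Prodh, proline dehydrogenase, was 5.38, 4.67 and 6.07 FPKM in KO and 16.6, 8.38 and 22.4 FPKM in WT. For all 3 the KO libraries lay below the WT libraries, with limma adjusted p of 0.136, 0.189 and 0.207. Of 18 tested genes of mTORC1 amino acid sensing, 2 had an unadjusted p under 0.05 as higher in KO and 1 as lower. Among all loci the shares were 11.2% and 3.99%. Sesn3 was 6.98, 8.80 and 7.22 FPKM in KO and 3.17, 3.29 and 6.04 FPKM in WT, and Mtor was 9.49, 9.80 and 8.28 FPKM in KO and 11.8, 13.5 and 14.3 FPKM in WT.

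Glutathione synthesis uses the cysteine that xCT helps supply. Of 14 tested genes for glutathione, cysteine and taurine, 3 had an unadjusted p under 0.05 as higher in KO and 1 as lower. The backgrounds were 11.2% and 3.99% of all loci. Nfe2l2, which encodes NRF2, a known activator of xCT, was 38.8, 32.6 and 28.7 FPKM in KO and 14.7, 15.8 and 18.4 FPKM in WT (log2 difference 0.99, SE 0.17, limma adjusted p = 0.128). Keap1, at 14.6 ± 1.40 FPKM in KO and 10.9 ± 0.470 FPKM in WT, and Ggt6 were also higher in KO without overlap. Of genes named after their values were seen, Gclc, Gclm, Nqo1 and Hmox1 overlapped, and Gsr was separated with KO above WT. The part of Nfe2l2 in the values of Slc7a11 was not tested. Csad, the taurine synthesis enzyme, was 4.04, 7.01 and 4.27 FPKM in KO and 15.4, 27.6 and 6.55 FPKM in WT, with overlap. Of 12 tested betaine, creatine and carnitine genes, 1 had an unadjusted p under 0.05, Chdh, which makes betaine from choline, at 19.5, 18.1 and 20.4 FPKM in KO and 24.2, 28.6 and 32.0 FPKM in WT. Of 9 tested thyroid hormone genes 1 did, Thrsp, a thyroid hormone responsive lipogenic gene, at 3.44 ± 1.42 FPKM in KO and 16.2 ± 11.99 FPKM in WT (SD, n = 3 each), with overlap. None of 7 tested peptide and amino acid carriers from other SLC families did. The share of all loci with such a p was 15.2%.

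KO replicate 2 was the lowest of the 6 libraries for 11 of the 33 tested genes and the highest for 9, Slc7a6os among the 9. Together that is 60.6% of the genes, against 45.1% of all loci for which this library was at either end. It was the lowest for 12.7% and the highest for 32.4% of all loci. Without it, the log2 difference of 23 of the 33 genes changed by a factor of more than 1.5, up or down. The same share over all loci was not computed, so this count cannot be read as a trait of these genes. Genes that KO replicate 2 held lowest included the abundant hepatocyte carriers Slc38a3, Slc38a4 and Slc7a2 and also Slc3a1, Slc16a10 and Slc36a4. Those it held highest included Slc3a2, Slc16a1, Slc36a1, Slc38a7 and Slc6a6. The cycling cell markers of this library, 13.8 FPKM in sum, were also the lowest in KO, and their part in these values was not tested.

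**Figure D5:**
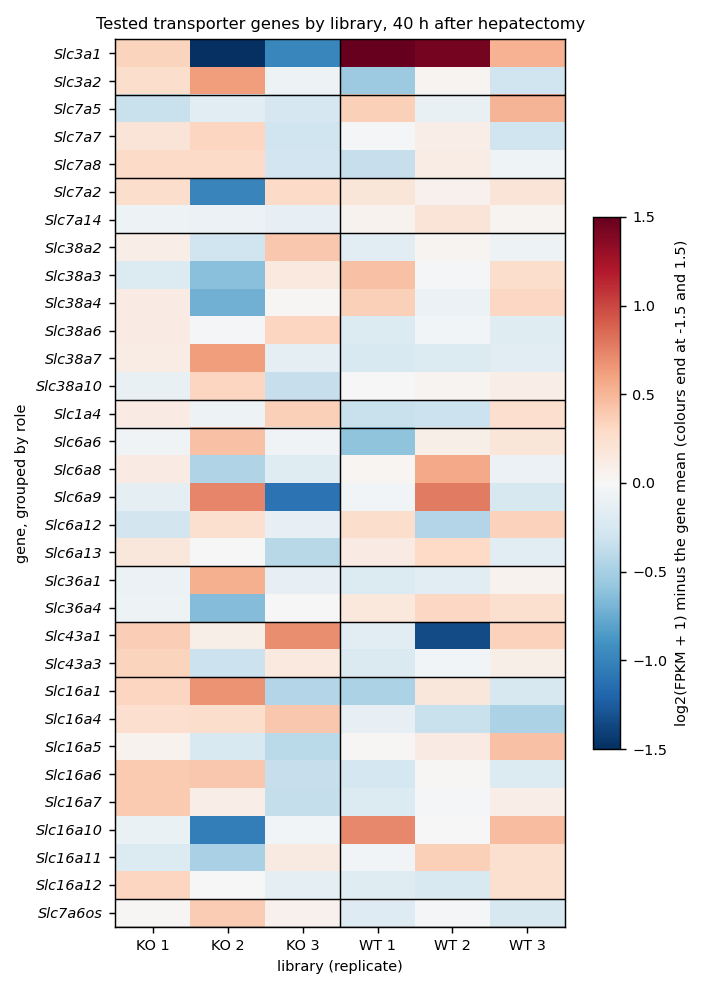
Log2(FPKM + 1) minus the mean of each gene over the 6 libraries, for 32 of the 33 tested genes (Slc7a6os, no transporter, included) grouped by role, with the KO libraries left and the WT libraries right. KO replicate 2 is blue, the lowest of the 6 libraries, for Slc3a1, Slc16a10 and Slc7a2 and red, the highest, for Slc16a1, Slc3a2 and Slc38a7.

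Carrier genes differ along the liver lobule and between cell types, so markers were read beside them. Of 14 tested pericentral hepatocyte markers, 7 had an unadjusted p under 0.05 and all 7 were lower in KO (background 3.99%). Among these 7, Slc22a3 and Rhbg were under 1 FPKM in every KO library. They reached the filter only through WT libraries, and their groups overlapped. Oat and Rhbg, also among the 7, were counted in the glutamine list above as well. The median log2 difference of the list was -0.80, against 0.15 for all loci. Of the 14, 4 were separated, all with KO below WT (background 5.44%), and Lect2, Axin2, Nkd1 and Cyp7a1 had log2 differences above 0 with overlap. The 7 included Notum at 7.47, 2.56 and 4.97 FPKM in KO and 15.6, 15.6 and 23.8 FPKM in WT and Lgr5, a receptor gene for R-spondins, at 1.51 ± 0.0200 FPKM in KO and 3.10 ± 0.958 FPKM in WT. Of 12 tested periportal markers 1 was called (background 0.119%), and the list median was 0.13. The marker called was Cdh1 (E-cadherin), which fell to 1.28 ± 0.186 FPKM in KO, against 10.5 ± 3.99 FPKM in WT (SD, n = 3 each, limma adjusted p = 0.0488). Hsd17b13 of the same list lay the other way, at 216, 173 and 314 FPKM in KO and 61.9, 41.4 and 115 FPKM in WT, and was not called (log2 difference 1.76, SE 0.40, limma adjusted p = 0.182). The part of zonal genes in the values of carriers such as Slc38a3 was not tested.

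Among markers of other cell types, the 11 Kupffer cell and macrophage genes summed to between 132 and 221 FPKM in KO and between 116 and 178 FPKM in WT. Marco was the only one of them with an unadjusted p under 0.05 (background 15.2%), at 18.7 ± 8.06 FPKM in KO and 7.98 ± 2.52 FPKM in WT. The 8 endothelial genes summed to between 51.7 and 76.6 FPKM in KO and between 49.0 and 73.9 FPKM in WT, and the 11 stellate and mesenchymal genes to between 90.9 and 139 FPKM in KO and between 111 and 126 FPKM in WT. Within these lists 1 gene each had an unadjusted p under 0.05, Cdh5 at 8.18 ± 0.506 FPKM in KO and 5.89 ± 1.13 FPKM in WT, and Reln at 17.7 ± 3.75 FPKM in KO and 9.63 ± 0.817 FPKM in WT, and for both the groups did not overlap. The 8 cholangiocyte and ductular genes summed to between 20.3 and 32.0 FPKM in KO and between 15.7 and 25.7 FPKM in WT. Neutrophil, erythroid and platelet genes summed to at most 30.5, 88.9 and 7.48 FPKM in KO and 37.9, 61.2 and 2.35 FPKM in WT. Genes of T and NK cells and of B and plasma cells stayed at or below 1.71 FPKM in sum in KO and 1.82 FPKM in WT. The kidney and adrenal markers, read because Slc3a1 and Slc7a9 are kidney genes, summed to at most 0.808 FPKM in KO and 0.679 FPKM in WT, with 4 of 7 (Aqp2, Cyp11a1, Slc12a3 and Umod) at 0 in all libraries. The pancreas, fat and muscle markers summed to at most 6.99 FPKM in KO and 6.21 FPKM in WT, with 5 of 8 (Adipoq, Cpa1, Ins2, Plin1 and Prss2) at 0.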

How the data were processed

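Per the labels' protocols, RNA came from frozen liver by Trizol and a miRNeasy kit, with Illumina or Nugen libraries, and neither names a strand setting. TopHat, edgeR, mm9 and mm10 appear in the submitters' processing notes, with no role stated. The authors deposited FPKM per locus and library, per the file headers, and LOWDATA where a filter of theirs applied. FPKM depends on gene model and library total. Of 23847 loci, 312 held LOWDATA throughout and are not used. The value 0.001 was read as 0. No other sample columns were present (0). Positions are on mm10, and all 75 genes were found in GENCODE M21.

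The KO and WT libraries were set against each other with limma 3.58.1 in R 4.3.3, on log2(FPKM + 1), over loci with a mean of at least 1 FPKM, with a variance trend, two-sided, and Benjamini-Hochberg adjustment over all loci tested. The pseudocount understates differences of low genes. Single genes also had an exact permutation test over 20 assignments (smallest p 0.1). The code was tested on simulated data. Relative depth is the commonest ratio of WT replicate 1 to the library among values under 0.1 FPKM.

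Named transporters are those called, those separated by group, the 15 most abundant, SLC3 genes with their light chains, and tested SLC16 genes, of which 1 is not reported here. From each gene list up to 4 members with the smallest p are named. Genes and lists were chosen with earlier results of these data known. The alternatives were another pseudocount, filter, scaling, variance prior, replicate block and each library left out.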

Additional observations from a re-analysis of the deposited data

How the results depend on the processing

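No transporter was called under any of the 13 alternatives. The smallest adjusted p among them in limma ranged from 0.178 to 0.537 over the fit as reported and these alternatives. Of 27 named genes, 19 kept their direction under every alternative in which they were fitted. With libraries rescaled by median of ratios, Slc16a12 (-0.027), Slc16a7 (-0.059) and Slc38a2 (-0.013) reversed in log2 difference, and with quantile normalization Slc16a12 (-0.044), Slc16a7 (-0.074), Slc38a2 (-0.016) and Slc7a7 (-0.0092) did. With 1 library left out, reversals gave ranges of -0.0087 to 0.27 for Slc16a12, -0.084 to 0.29 for Slc16a7, -0.35 to 0.038 for Slc6a12, -0.51 to 0.13 for Slc7a2, -0.27 to 0.065 for Slc38a10, -0.032 to 0.32 for Slc38a2 and -0.032 to 0.36 for Slc6a6. With 1 library left out, the number of tested genes with separated groups, Slc7a6os included, ranged from 11 to 16, since fewer libraries overlap less. It was 9 in the fit as reported (background 22.1%) and 4 with a filter of 5 FPKM, which left 24 genes. Without KO replicate 2 it was 14 of 33, against 38.6% of all loci. For the other libraries left out and for this filter the share over all loci was not computed. These counts thus cannot be read as a trait of these genes. Over all loci the count of calls was 6 without a filter, 5 with a filter of 5 FPKM, and 0 to 242 with 1 library left out, 0 without WT replicate 1 and 242 without KO replicate 2, and 940 loci had an unadjusted p under 0.05 in limma without WT replicate 1; the cause was not tested. Same-numbered KO and WT libraries did not all deviate together (correlations -0.0840, 0.155 and 0.163). With 3 libraries a group, these values cannot decide whether the numbers pair them. The fit with a replicate block called 47 loci and 0 transporters. Depth limits genes under 1 FPKM most.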

Other observations

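Several of the transporter genes lie beside each other in the genome, and their values are given here without a test. Slc16a11 and Slc16a13 on chromosome 11 end 377 bases apart on opposite strands, and Slc16a13, below the filter, was 0.347 ± 0.184 FPKM in KO and 0.916 ± 0.652 FPKM in WT (SD, n = 3 each), with overlap. Slc6a13 and Slc6a12 on chromosome 6 lie 8978 bases apart on the same strand, and the ratio of Slc6a13 to Slc6a12 was 4.99, 3.05 and 2.96 in KO and 3.29, 6.18 and 2.53 in WT. Slc38a1 lies 44478 bases from Slc38a2 on chromosome 15 and was 0.415 ± 0.157 FPKM in KO and 0.310 ± 0.0978 FPKM in WT, far below its neighbour. Slc7a6os, which lies 1733 bases from Slc7a6, was 7.602, 10.03 and 7.87 FPKM in KO and 6.43, 7.32 and 6.16 FPKM in WT, with KO above WT as deposited and overlap after rescaling.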
